A study of Rattus norvegicus with 17 samples.

Results

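The interferon response and antigen presentation genes of the remnant rat kidney were examined as a group of 37 genes, among 23487 genes in the count tables. The members were taken by symbol from the transcript lists that the study published for 2 separate rat experiments, study 1 and study 2, so only genes that the study listed as changed could enter. Of the 2007 listed genes with a symbol, the symbol pattern (interferon regulatory factors, interferon-induced genes, JAK, STAT and SOCS genes, PARP, TRIM, proteasome, TAP and MHC names) matched 37. Among these, 19 were listed from study 1 only, 5 from study 2 only and 13 from both. The libraries analysed here are those of study 2. The 18 members listed from study 2 were therefore chosen with the same contrast, and their values are described below without a test. The 19 members listed from study 1 only were chosen on other rats, and were tested here.

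RNA came from kidney tissue of 12 rats after sub-total nephrectomy (SNx) and of 5 control rats, 1 library per rat. In SNx, most of the kidney mass is removed surgically and the remnant fails progressively. By the methods, a part of the kidney was fixed for histology and the rest was frozen for protein or RNA work. The labels call the controls NoOp or healthy, whereas the methods describe the controls of study 2 as sham-operated, and NoOp is used here. All rats were male Wistar Han, and the ages were not given in the sources used here. By the methods, SNx rats were killed when serum creatinine or proteinuria passed a set limit. By the paper's text only a minority of the SNx rats of study 2 reached that limit, so many of the 12 may come from rats below it, and the labels do not say which of the 12 libraries came from rats past the limits. Each rat is a separate sample, and all are called SNx 1 to SNx 12 and NoOp 1 to NoOp 5.

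Interferons signal through cell surface receptors and Janus kinases (JAK) to STAT transcription factors, which with interferon regulatory factors (IRF) switch on antiviral and antigen presentation genes. Among these are the immunoproteasome subunits, which change how proteins are cut into peptides, and the TAP transporter and its partners, which load the peptides on MHC class I molecules. MHC class II carries peptides from engulfed proteins and is governed by the transactivator CIITA. In the kidney, both leukocytes and tubular epithelium can express these genes, and bulk RNA cannot tell more cells of a type from more RNA per cell.

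Many members hold short DNA letters near their start sites that STAT and IRF proteins are known to recognise, and the sequences are shown first because the values below concern the genes beside them. RefSeq windows of 300 bases (250 before and 50 after the annotated start, build GRCr8) were found for 31 of the 37 members. Windows for Ifitm1, Jak3, Nlrc5, Trim46, Parp10 and Ciita were not used here. The core of the interferon-stimulated response element (ISRE) was searched as GAAANNGAAA, the gamma-activated site (GAS) as TTCNNNGAA and the kappa B site as GGGANTTTCC, each on both strands. The ISRE core was found at 13 of the 31 members and in 3.92% of all 33469 windows. The GAS letters were found at 6 members and in 8.87% of all windows, and the kappa B letters at 4 members (B2m, Ifngr2, Tap1 and Tapbp) and in 0.362% of all windows. The following stretches show the first ISRE core of each of the 13 members along the gene's own strand. Every match to any of the 3 motifs within a stretch is in capitals.
Psmb8 (chr20:4657010-4657051, minus strand): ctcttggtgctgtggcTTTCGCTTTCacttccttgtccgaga
Psmb10 (chr19:50743340-50743381, minus strand): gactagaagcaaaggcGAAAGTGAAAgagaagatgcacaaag
Psme2 (chr15:33052779-33052820, minus strand): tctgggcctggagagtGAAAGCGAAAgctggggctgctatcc
Tap1 (chr20:4668639-4668680, minus strand): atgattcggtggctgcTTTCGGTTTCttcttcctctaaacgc
Tap2 (chr20:4652312-4652353, minus strand): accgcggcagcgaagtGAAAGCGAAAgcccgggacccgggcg
Tapbp (chr20:4967878-4967919, minus strand): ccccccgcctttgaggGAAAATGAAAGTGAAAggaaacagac
B2m (chr3:129549164-129549205, plus strand): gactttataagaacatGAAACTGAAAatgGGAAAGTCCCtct
Gbp2 (chr2:234005680-234005721, plus strand): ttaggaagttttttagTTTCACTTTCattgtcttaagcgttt
Ifi44 (chr2:243303841-243303882, minus strand): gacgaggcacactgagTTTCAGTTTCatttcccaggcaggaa
Ifih1 (chr3:67684002-67684043, minus strand): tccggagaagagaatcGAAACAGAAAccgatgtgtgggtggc
Ifitm3 (chr1:205541777-205541818, minus strand): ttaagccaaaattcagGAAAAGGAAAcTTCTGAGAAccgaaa
Isg20 (chr1:142239951-142239992, plus strand): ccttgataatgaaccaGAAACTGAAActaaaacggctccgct
Parp14 (chr11:78408042-78408083, plus strand): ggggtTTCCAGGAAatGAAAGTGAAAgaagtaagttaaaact

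Class I loading genes and proteasome genes made up 7 of these 13. In Tapbp, 2 ISRE cores overlapped each other. In B2m, the core at -150 to -141 stood beside a kappa B match at -137 to -128, counted from the start site as 0. In Parp14, a GAS match lay just before the core. Psmb10 (-73 to -64 and -17 to -8) and Ifi44 (-26 to -17 and 26 to 35) also held 2 cores each, of which only the first is shown. The 3 interferon regulatory factors with a GAS match, and no ISRE core by these letters, read as follows.
Irf1 (chr10:38417777-38417817, plus strand): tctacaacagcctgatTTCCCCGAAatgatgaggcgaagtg
Irf8 (chr19:65699088-65699132, plus strand): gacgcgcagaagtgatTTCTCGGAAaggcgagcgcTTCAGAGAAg
Irf9 (chr15:33065721-33065761, plus strand): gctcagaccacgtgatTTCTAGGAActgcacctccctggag

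Irf8 held 2 GAS matches in its window. The remaining GAS matches were in Ifitm3, Parp14 and Psmb8. Tap1 and Psmb9 lie head to head on chromosome 20, with 457 bases between their start sites, and the 250 bases before each start show what the shared stretch holds.
Tap1 (chr20:4668544-4668793, minus strand): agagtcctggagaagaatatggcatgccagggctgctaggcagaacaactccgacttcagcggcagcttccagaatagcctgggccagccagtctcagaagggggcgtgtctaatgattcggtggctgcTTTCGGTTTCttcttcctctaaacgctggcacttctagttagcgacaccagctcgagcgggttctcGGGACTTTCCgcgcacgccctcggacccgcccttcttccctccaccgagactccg
Psmb9 (chr20:4668750-4668999, plus strand): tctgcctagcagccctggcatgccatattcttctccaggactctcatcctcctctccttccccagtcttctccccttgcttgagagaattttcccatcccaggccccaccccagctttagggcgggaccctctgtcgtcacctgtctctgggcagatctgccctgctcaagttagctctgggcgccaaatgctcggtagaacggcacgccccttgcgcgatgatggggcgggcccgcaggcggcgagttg

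The stretch before Tap1 held an ISRE core and a kappa B match, and the stretch before Psmb9 held none of the 3 motifs by these letters. In all, 14 of the 31 members had no match of any of the 3 motifs within their windows. They were Psmb9, Psme1, Parp3, Parp9, Socs3, Stat3, Ifnlr1, Irf5, Oasl, Tapbpl, RT1-DOa, Ifi30, Ifitm10 and Trim63. The matches of Tap1 lie between the 2 start sites but outside the window of Psmb9, so Psmb9 is among these by window length. A match of letters describes the sequence and does not show that a factor bound there in these kidneys. The members with an ISRE core had a median log2 fold change, SNx over NoOp, of 1.08 (range 0.40 to 1.88), and the 18 members with a window but no core had a median of 1.36 (range -2.25 to 5.07), and the ranges overlapped, with no test made.

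**Figure D1:**
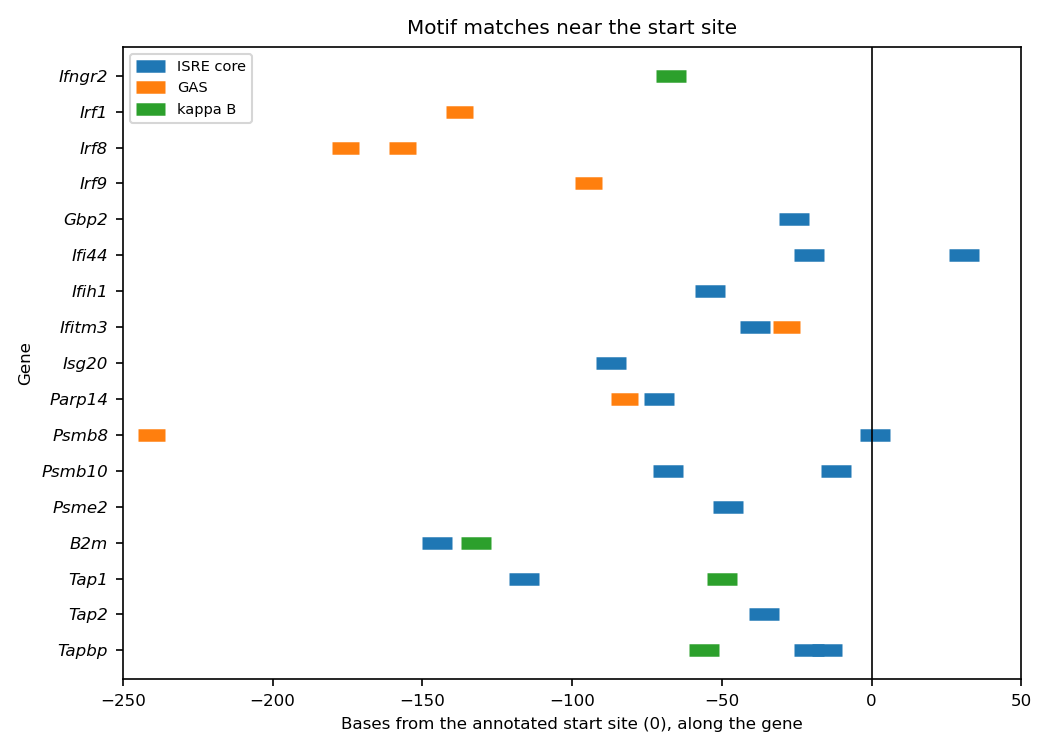
Positions of ISRE core, GAS and kappa B letters in 17 members, drawn as bases from the annotated start site (0) along the gene, over a window from 250 bases before to 50 after it. The matches of Psmb8, Psmb10, Tapbp, Gbp2 and Ifi44 include one within 31 bases of the start, whereas the GAS matches of Irf1 and Irf8 lie more than 130 bases before it.

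Total counts were 19210434 to 30784070 in the SNx libraries and 30454170 to 43876369 in the NoOp libraries. Every member passed the filter on low counts, and the lowest single count of any member was 22. Values are given as CPM, the counts of a gene relative to the TMM-scaled total of its library, and they compare libraries for 1 gene and not genes with each other, since they are not divided by gene length. Fold changes and standard errors (SE) are those of edgeR's quasi-likelihood model on counts, and FDR is the Benjamini-Hochberg adjusted p over 15438 genes. At FDR below 0.05, 58.0% of all tested genes were called, 30.3% as higher in SNx and 27.7% as lower, so that a call alone sets a gene little apart in these kidneys. Of the 19 members listed from study 1 only, 18 rose and none fell, and Psme1 was not called. In the set of all 1528 named genes listed from study 1 only, 49.7% were called higher. The median log2 fold change of the 19 was 0.89, beside 0.02 over all tested genes and 0.35 over those 1528. Of the 18 members listed from study 2, 17 were higher in SNx and Trim63 was lower. Of all 475 named genes listed from study 2, 65.3% were higher. The median of the 18 was 1.55, beside 1.18 over those 475. Every SNx library lay above every NoOp library for 13 of the 19 members listed from study 1 only, beside 36.1% of the 1528 named genes, and for 15 of the 18 listed from study 2, beside 60.4% of the 475. Among all tested genes the share was 13.5%.

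**Figure D2:**
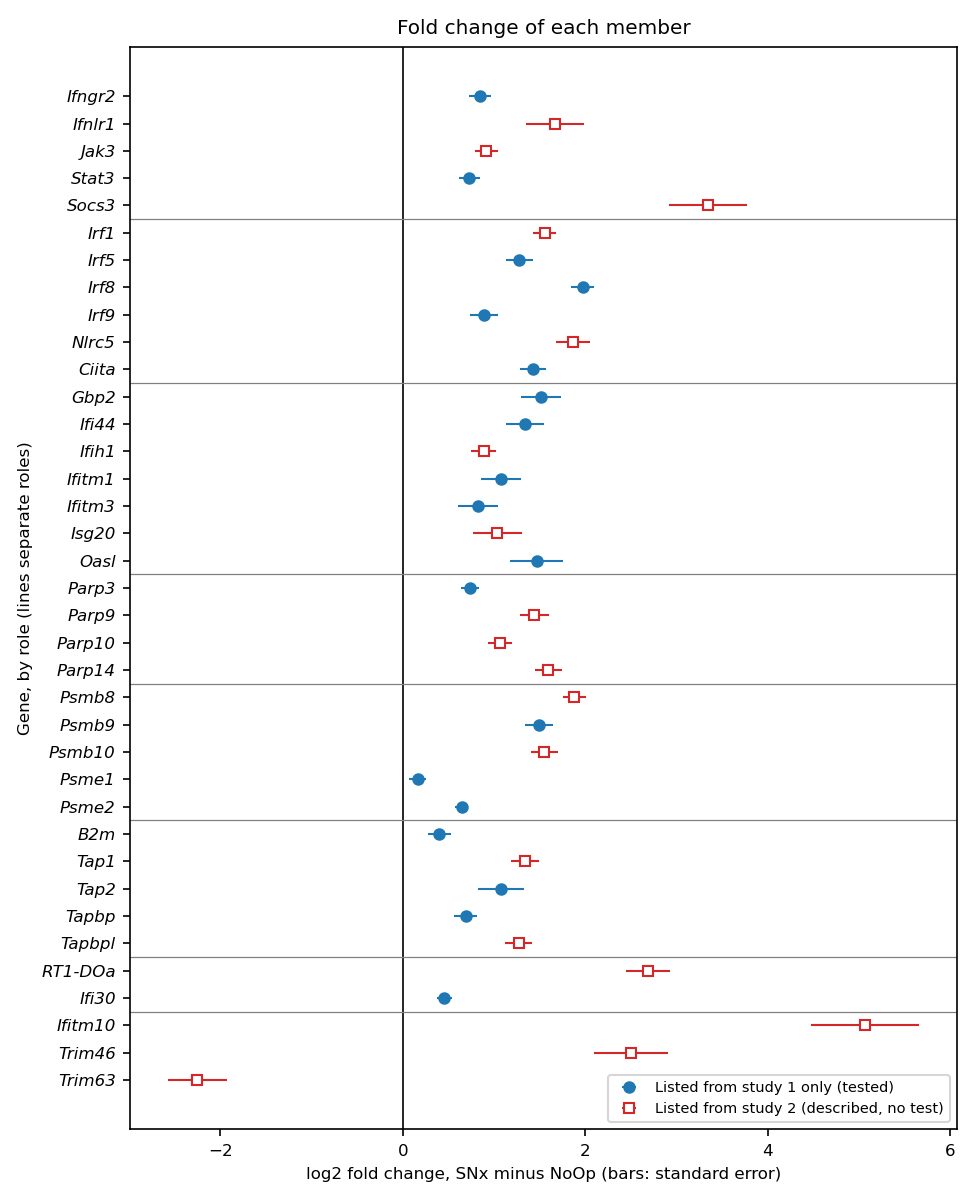
Log2 fold change of each member, SNx minus NoOp, with its standard error, in order of role. Filled circles are the 19 members listed from study 1 only, which were tested, and open squares the 18 listed from study 2, which are described only. Psme1 lies nearest to 0 (0.16), Ifitm10 farthest to the right (5.07), and Trim63 alone to the left (-2.25).

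All 5 receptor and JAK-STAT members were higher in SNx. Stat3, the transcription factor of IL-6 type cytokines, read 259, 229, 270, 264 and 256 CPM in NoOp 1 to 5 and between 328 and 572 CPM in SNx, with a median of 431. Each SNx library lay above each NoOp library, and the fold was 1.66 (log2 0.73, SE 0.12, FDR 0.000103, n = 12 and 5). Ifngr2, a chain of the interferon gamma receptor, read 15.3, 16.6, 15.0, 16.7 and 15.6 CPM in NoOp 1 to 5 and 20.4 to 35.8 in SNx, with a median of 28.5. It rose 1.80-fold (log2 0.85, SE 0.12, FDR 2.32e-05), and the 5 control values were nearly alike. Jak3, a kinase used by cytokine receptors of lymphocytes, read 71.5, 63.1, 71.7, 66.6 and 72.6 CPM in NoOp 1 to 5 and 93.2 to 167 in SNx, with a median of 123, a 1.89-fold difference.

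Socs3, an inhibitor that STAT3 induces, differed most in this group. Its CPM was between 2.29 and 3.80 in NoOp and between 14.6 and 75.6 in SNx, so the lowest SNx library, SNx 11, was still well above the controls, and the fold was 10.1 (log2 3.34, SE 0.43). The highest SNx library, SNx 1, stood 5.19-fold above SNx 11. Ifnlr1, the receptor chain for type III interferons that act on epithelia, was 3.17-fold higher (log2 1.67, SE 0.32) and overlapped at a single library, with 7.24 CPM in SNx 11 against 8.41 in NoOp 5.

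The 6 transcription factors were all higher, without overlap between groups. Irf8, a factor of myeloid and B cells, read 18.7, 19.8, 19.4, 21.4 and 16.3 CPM in NoOp 1 to 5 and 54.7 to 95.4 in SNx, with a median of 76.3. Its rise of 3.92-fold (log2 1.97, SE 0.13, FDR 5.65e-08) was the largest among the members that were tested. Ciita, the transactivator of MHC class II, read 26.4, 29.2, 21.0, 28.2 and 19.3 CPM in NoOp 1 to 5 and 41.8 to 86.3 in SNx, with a median of 67.8, and rose 2.69-fold (log2 1.43, SE 0.14, FDR 1.03e-06). Both factors were thus raised in every operated rat. Irf1, a factor that interferon gamma induces, read 21.9, 23.1, 25.9, 26.0 and 25.3 CPM in NoOp 1 to 5 and 49.3 to 91.1 in SNx, with a median of 73.0, a 2.94-fold difference (log2 1.55, SE 0.13).

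Nlrc5, the counterpart of CIITA for class I genes, was 3.65-fold higher (log2 1.87, SE 0.19), with 11.3 to 18.3 CPM in NoOp and 31.6 to 83.6 in SNx. Irf5, a factor downstream of Toll-like receptors, rose 2.43-fold (FDR 4.41e-06). Irf9, a part of the complex that binds the ISRE, rose 1.85-fold (FDR 0.000166), with 18.6 CPM in the lowest SNx library beside 18.1 in the highest NoOp library. The log2 ratio of Irf8 to Irf9 within a library, which does not depend on how libraries are scaled, was higher in SNx by 1.08 (mean 1.44 against 0.36, SD 0.30 and 0.27, n = 12 and 5). This and 5 further ratios below were chosen after the values had been seen, so they are described without a test.

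The 7 antiviral effectors and sensors were all higher in SNx, but only 3 were without overlap, since single SNx libraries reached down into the control range. Ifitm3, which blocks virus entry at membranes, read 22.6, 26.1, 17.8, 28.1 and 17.8 CPM in NoOp 1 to 5 and 17.5 to 62.8 in SNx, with a median of 39.2. SNx 8 lay below all controls and the other 11 above them, and the rise was 1.77-fold (log2 0.82, SE 0.22, FDR 0.00441). Gbp2, a guanylate-binding protein induced by interferon gamma, read 9.40, 12.4, 11.2, 13.4 and 13.6 CPM in NoOp 1 to 5 and 20.2 to 54.4 in SNx, with a median of 33.5, a rise of 2.86-fold (log2 1.52, SE 0.22, FDR 3.03e-05). Ifih1, the cytosolic sensor of long double-stranded RNA also called MDA5, read 17.1, 16.6, 16.6, 15.9 and 14.0 CPM in NoOp 1 to 5 and 21.0 to 39.3 in SNx, with a median of 28.7, a 1.85-fold difference. Gbp2 and Ifih1 were thus separated between groups, and Ifitm3 was not.

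Among the others, Ifi44 rose 2.54-fold (FDR 6.21e-05), Ifitm1 2.11-fold (FDR 0.000598) and Oasl, a relative of the oligoadenylate synthetases, 2.77-fold (FDR 0.000488). Ifitm1 and Oasl each had 1 SNx library within the control range, SNx 8 for Ifitm1 and SNx 11 for Oasl. Isg20, an RNA exonuclease, was 2.05-fold higher (log2 1.04, SE 0.27). Its control values hardly varied (4.55 to 5.02 CPM), whereas the SNx values ran from 4.90 to 17.5, with SNx 11 inside the control range.

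The 4 PARP members, which transfer ADP-ribose, were higher in SNx in all libraries. Parp14, which acts in macrophage and lymphocyte signalling, read 88.3, 78.5, 78.9, 81.0 and 84.2 CPM in NoOp 1 to 5 and 163 to 319 in SNx, with a median of 249, so that the lowest SNx library was well above the highest control. Parp9, the partner of the ubiquitin ligase DTX3L, read 23.4, 25.6, 27.2, 27.6 and 22.1 CPM in NoOp 1 to 5 and 46.5 to 95.3 in SNx, with a median of 68.8. Their folds were 3.02 and 2.71. Parp3, a DNA repair enzyme that is no typical interferon target, read 38.0, 40.9, 43.8, 40.0 and 40.7 CPM in NoOp 1 to 5 and 54.7 to 88.7 in SNx, with a median of 64.1, and rose 1.67-fold (log2 0.74, SE 0.10, FDR 1.35e-05). Parp10 was 2.10-fold higher (log2 1.07, SE 0.13).

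Of the 5 immunoproteasome members, 4 were higher in SNx and Psme1 was not called. The catalytic subunits Psmb8, Psmb9 and Psmb10, which replace the constitutive ones of the proteasome core, were 3.68, 2.82 and 2.94-fold higher. Psmb8 read 12.1, 10.5, 10.4, 12.6 and 11.8 CPM in NoOp 1 to 5 and 29.5 to 54.4 in SNx, with a median of 43.0. Psmb9 rose from 6.14 to 9.14 CPM in NoOp to 14.8 to 27.9 in SNx (log2 1.49, SE 0.15, FDR 1.05e-06). Psme1 and Psme2 encode the PA28 activator, which opens the proteasome core. Psme2 read 31.7, 35.7, 33.8, 37.9 and 41.6 CPM in NoOp 1 to 5 and 50.8 to 66.2 in SNx, with a median of 54.1, and rose 1.56-fold (log2 0.65, SE 0.08, FDR 4.49e-06). Psme1 read 98.9, 114, 110, 129 and 129 CPM in NoOp 1 to 5 and 95.8 to 154 in SNx, with a median of 133, and was not called (log2 0.16, SE 0.10, FDR 0.152). SNx 1 lay below all controls for Psme1, 7 SNx libraries lay above all controls, and without SNx 1 the gene was called (log2 0.20, FDR 0.0443).

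Psmb9 was also set against the activator subunits within each library. The log2 ratio of Psmb9 to Psme1 within a library was higher in SNx by 1.33 (mean -2.56 against -3.89, SD 0.41 and 0.35, n = 12 and 5), above all controls in 12 of 12 SNx libraries. The ratio of Psmb9 to Psme2 was higher by 0.84, above all controls in 11 of 12.

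**Figure D3:**
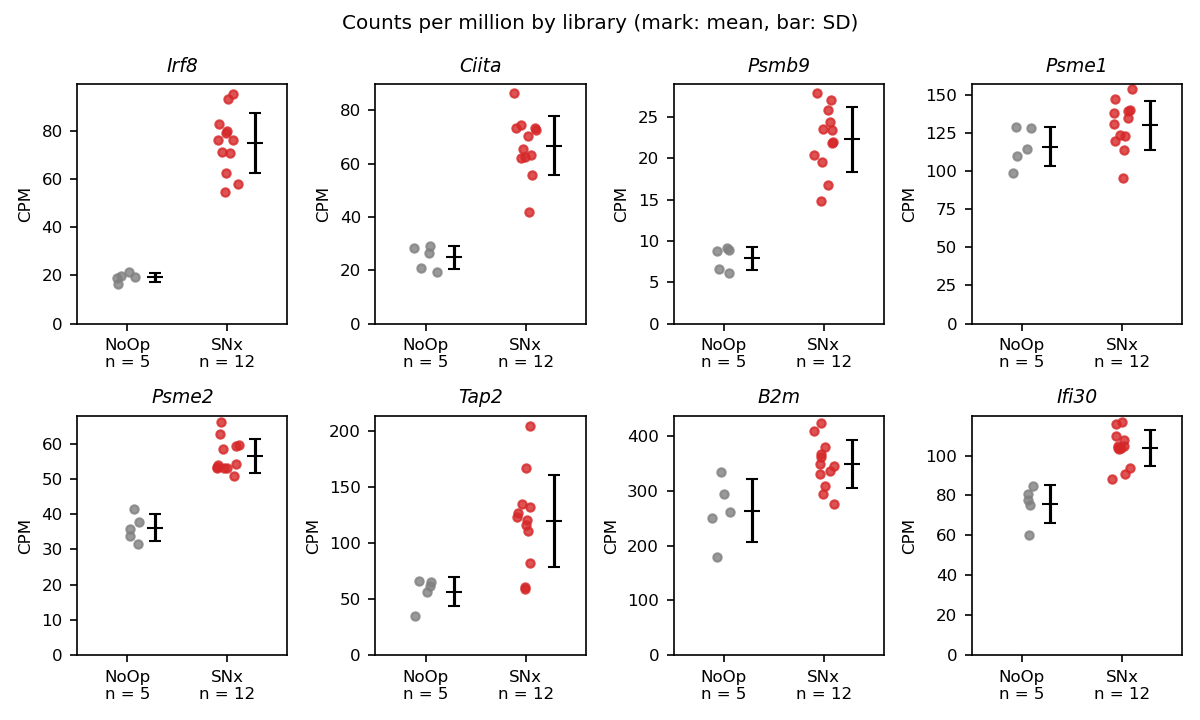
CPM of 8 members that were tested, by library, with 5 NoOp (grey) and 12 SNx (red) points, and the mean and SD beside them. Irf8, Ciita, Psmb9, Psme2 and Ifi30 are separated between groups, whereas Psme1, Tap2 and B2m overlap.

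The 5 class I loading members were all higher in SNx. B2m, the light chain of class I molecules, read 261, 335, 251, 295 and 179 CPM in NoOp 1 to 5 and 276 to 425 in SNx, with a median of 348, and rose 1.32-fold (log2 0.40, SE 0.13, FDR 0.0116). Only 8 of 12 SNx libraries lay above all controls. Tap2, a chain of the peptide transporter, read 65.0, 65.9, 56.0, 61.5 and 34.6 CPM in NoOp 1 to 5 and 59.0 to 205 in SNx, with a median of 122, and rose 2.12-fold (log2 1.08, SE 0.25, FDR 0.00181). SNx 9 and SNx 11 stayed within the control range of Tap2. Tapbp, which encodes tapasin, read 97.1, 106, 83.7, 115 and 80.3 CPM in NoOp 1 to 5 and 127 to 210 in SNx, with a median of 152, and rose 1.61-fold (log2 0.69, SE 0.13, FDR 0.000278).

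Tap1, the other chain of the transporter, was 2.53-fold higher (log2 1.34, SE 0.15), with 17.2 to 29.0 CPM in NoOp and 39.1 to 79.9 in SNx. Tapbpl, a tapasin relative that edits the bound peptide, was 2.41-fold higher (log2 1.27, SE 0.15). NoOp 5 was the lowest control for B2m, Tap1, Tap2 and Tapbp. The log2 ratio of Psmb9 to B2m within a library was higher in SNx by 1.07, above all controls in 12 of 12 SNx libraries. That of Tap2 to Tapbp was higher by 0.35, above all controls in 8 of 12.

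Both class II members were higher without overlap. RT1-DOa encodes the alpha chain of the class II modulator DO, which is known from B cells, and it read 3.67, 2.36, 2.73, 2.22 and 2.16 CPM in NoOp 1 to 5 and 10.2 to 24.2 in SNx, with a median of 17.2, a 6.45-fold difference (log2 2.69, SE 0.24). Ifi30, the lysosomal thiol reductase GILT, read 77.8, 84.6, 75.2, 80.6 and 60.1 CPM in NoOp 1 to 5 and 88.5 to 117 in SNx, with a median of 104, and rose 1.37-fold (log2 0.45, SE 0.08, FDR 0.000251). The log2 ratio of Ciita to Ifi30 within a library was higher in SNx by 0.97, above all controls in 12 of 12 SNx libraries.

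The symbol pattern also caught 3 genes that are named alike but have no established interferon role, and Ifitm10 and Trim63 among them had the highest and the lowest fold of the 37. Ifitm10 read 4.16, 2.05, 3.67, 2.69 and 3.32 CPM in NoOp 1 to 5 and 29.4 to 204 in SNx, with a median of 80.4, a 33.6-fold difference (log2 5.07, SE 0.59). Trim46, which organises microtubules in the axon of neurons, read 1.39, 1.25, 0.940, 1.86 and 1.50 CPM in NoOp 1 to 5 and 2.24 to 14.8 in SNx, with a median of 7.15, a 5.66-fold difference (log2 2.50, SE 0.40). Both spread widely within SNx, Ifitm10 by 6.93-fold and Trim46 by 6.60-fold between the highest and the lowest library. Trim63, the muscle ubiquitin ligase MuRF1, went the other way. It read 10.3, 9.03, 13.6, 10.5 and 10.2 CPM in NoOp 1 to 5 and 1.08 to 4.61 in SNx, with a median of 1.55 (log2 -2.25, SE 0.32). Every SNx library lay below every control, as for 148 of the 475 named genes listed from study 2 and 9.6% of all genes.

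**Figure D4:**
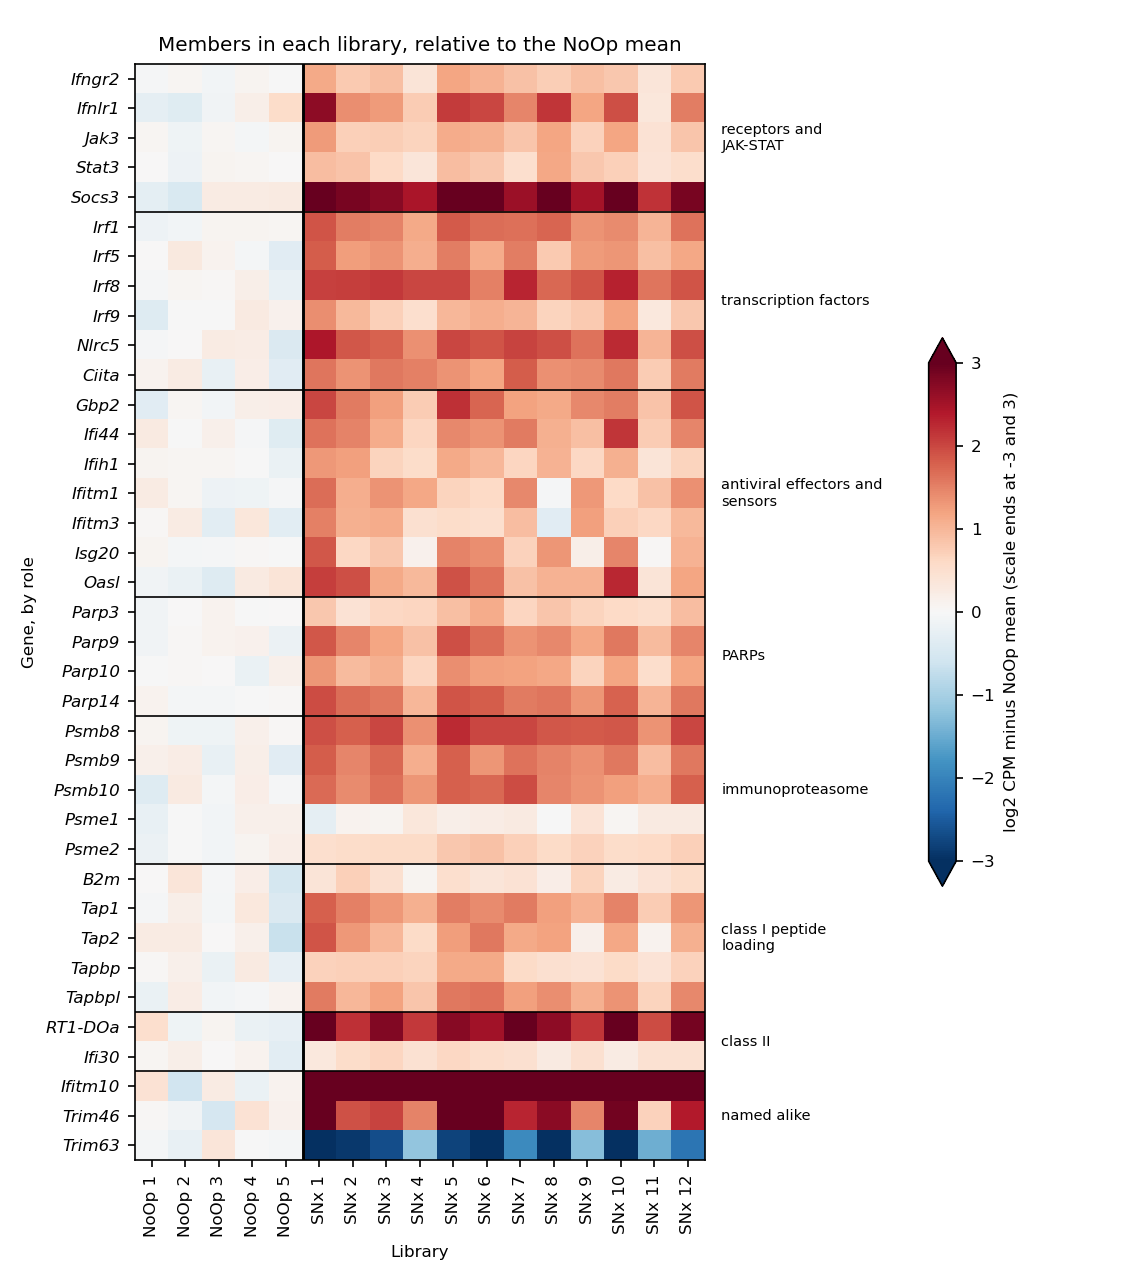
Log2 CPM of the 37 members in each of the 17 libraries relative to the NoOp mean of the gene, in order of role, with red above and blue below and the colour scale ending at -3 and 3. SNx 1 was the highest SNx library for 16 members and SNx 11 the lowest for 22, and Trim63 is the row that is blue throughout SNx.

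Of 24 other genes of the same pathways (RNA sensors, ubiquitin-like modifiers, peptidases, endosomal receptors), 18 were listed from study 1 only, and 15 of these rose and 1 fell. That is 83.3% called higher, beside 49.7% of the 1528 named genes listed from study 1 only and 30.3% of all genes. Their median log2 fold change was 1.06. The 6 listed from study 2 were all higher, with a median of 1.41. Beside them, 65.3% of the 475 named genes listed from study 2 were higher, with a median of 1.18. The most abundant by counts was Rnf213, a giant ubiquitin ligase induced by interferon, with a log2 difference of 1.30. Lgals3bp, a secreted glycoprotein, was higher by 1.92 and Adar, the editor of double-stranded RNA, by 0.80, both listed from study 2. Trafd1, a negative regulator of innate signalling, rose by 0.88 (FDR 0.00124) and Zc3hav1, an antiviral zinc finger protein, by 0.86 (FDR 2.57e-05). Lap3, a leucine aminopeptidase, fell by 0.73 on the log2 scale (FDR 0.00381), and of the 18 only Tpp2 and Cd1d1 were not called.

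Transcripts of leukocytes were also higher in SNx than in NoOp. All 6 pan-leukocyte markers (Ptprc, Cd53, Laptm5, Coro1a, Lcp1 and Itgb2) rose, and their summed level was 6.08 to 6.79 log2 CPM in NoOp and 7.91 to 8.85 in SNx, a difference in mean of 1.92 (two-sided exact permutation p = 0.000162, n = 12 and 5, the smallest p that 6188 splits can give). The sums of 9 myeloid, 6 T cell and 5 B cell markers were higher by 1.62, 1.70 and 3.65 on the log2 scale (exact permutation p = 0.000162 for each), all markers rising. The myeloid sum ran from 6.52 to 7.11 in NoOp and from 7.74 to 9.33 in SNx, the T cell sum from 4.57 to 5.31 and from 6.32 to 7.20, and the B cell sum from 0.85 to 1.48 and from 3.85 to 5.85. A B cell marker was at 0 counts in at least 1 library, and the other markers were detected throughout. Of 8 tubule markers, 7 fell (Lrp2, Cubn, Slc34a1, Slc5a1, Slc22a6, Slc22a8 and Slc13a3) and Cldn19 rose (log2 0.99). Their sum was 13.9 to 14.2 in NoOp and 10.5 to 13.6 in SNx (exact permutation p = 0.00469), and all of them were detected in every library. The sum stands for these 8 genes and not for the tubule as a whole. All markers were taken from genes that the study listed as changed, in part from this same contrast, so unchanged markers could not enter. The directions and the permutation p-values of these sums were thus partly set by that choice, and they describe only the markers used. The part of leukocyte and tubule transcripts in the members' changes was not tested.

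Within SNx, without the control libraries, the members were compared with both marker sums. The group contrast still entered through the choice of genes, since part of the members and part of the markers were listed from it. How far that choice set the size and direction of the relations below was not tested. The counts of members that passed therefore describe only these members and markers. Over the 12 SNx libraries the relation of the leukocyte and tubule sums missed the threshold (Pearson r = 0.05, permutation p = 0.888, Spearman rho = -0.06, permutation p = 0.850, and r = 0.40 without the 2 libraries farthest from the median tubule sum, SNx 1 and SNx 5). Against the leukocyte sum, the median r of all 37 members was 0.17, with 26 positive and 11 negative. After adjustment over the 37, 4 members passed the threshold, all positive. They were Irf8 (r = 0.83, permutation p = 0.000900, adjusted p = 0.0333, rho = 0.80, permutation p = 0.00314), Ifitm3 (r = 0.77, permutation p = 0.00247, adjusted p = 0.0448, rho = 0.77, permutation p = 0.00502), Irf5 (r = 0.75, permutation p = 0.00441, adjusted p = 0.0448, rho = 0.83, permutation p = 0.00131) and Ifitm1 (r = 0.75, permutation p = 0.00484, adjusted p = 0.0448, rho = 0.73, permutation p = 0.00948). For rho, the adjusted permutation p was 0.0581, 0.0619, 0.0485 and 0.0852 in the same order, so by rank only Irf5 passed. Without SNx 6 and SNx 8, the libraries farthest from the median, r of these 4 was 0.69, 0.70, 0.74 and 0.55, and no member passed the adjustment over the 10 libraries that were left. Of these 4, the r of Irf5 hardly moved, and that of Ifitm1 fell most. Among the other members, r fell only for B2m, Ifi30, Psme1 and Trim63, and rose for the rest. It rose from 0.57 to 0.77 for Psmb9, from 0.65 to 0.75 for Ciita and from 0.13 to 0.68 for Irf1. Psmb9 and Ciita then stood above these 4, so r against this sum depended for most members on SNx 6 and SNx 8. Within the lower and the upper range of library numbers, 6 libraries each, r was 0.95 and 0.77 for Irf8 and 0.74 and 0.82 for Ifitm3.

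Against the tubule sum, 23 of 37 members passed, 21 with a negative and 2 with a positive r, and the median r of all 37 was -0.69. No share over all genes is given beside the counts for either sum. Whether the members differ from other genes in this was not tested. The members with a negative r were higher where the sum of these 8 tubule markers was lower. Socs3 (r = -0.93, permutation p = 8e-05, adjusted p = 0.000592, rho = -0.91, permutation p = 0.00012), Jak3 (r = -0.92, permutation p = 1e-05, adjusted p = 0.000123, rho = -0.93, permutation p = 2e-05), Isg20 (r = -0.92, permutation p = 1e-05, adjusted p = 0.000123, rho = -0.94, permutation p = 5e-05) and Ifnlr1 (r = -0.91, permutation p = 1e-05, adjusted p = 0.000123, rho = -0.94, permutation p = 2e-05) were the strongest, where 1e-05 is the smallest p that 100000 permutations can give. Psme1 (r = 0.73, permutation p = 0.00699, adjusted p = 0.0162, rho = 0.64, permutation p = 0.0276) and Trim63 (r = 0.71, permutation p = 0.00963, adjusted p = 0.0188, rho = 0.72, permutation p = 0.0114) were the positive ones. Without SNx 1 and SNx 5, r was -0.87 for Socs3, -0.93 for Jak3, -0.90 for Isg20, -0.86 for Ifnlr1, 0.52 for Psme1 and 0.76 for Trim63.

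Over those 10 libraries 8 members passed, namely Ifnlr1, Jak3, Socs3, Isg20, Parp9, Tapbpl, Ifitm10 and Trim46. Within the lower range of library numbers r was -0.99 for Socs3 and -0.99 for Jak3, and within the upper range -0.84 and -0.94. Irf8 (r = -0.10, permutation p = 0.753), Ciita (r = -0.20, permutation p = 0.528) and Ifitm3 (r = -0.03, permutation p = 0.932) missed the threshold against the tubule sum.

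**Figure D5:**
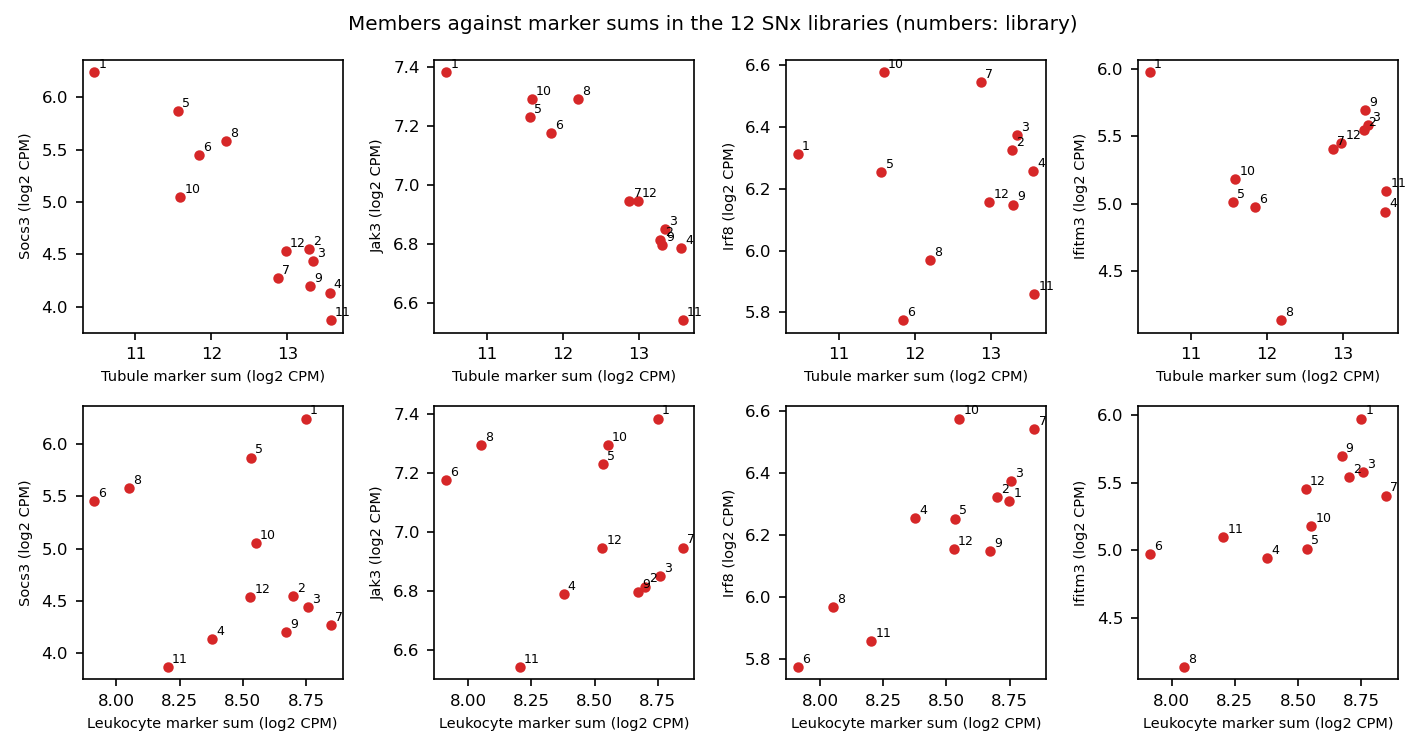
Log2 CPM of Socs3, Jak3, Irf8 and Ifitm3 in the 12 SNx libraries against the tubule marker sum (upper row) and the leukocyte marker sum (lower row), both in log2 CPM, with the library number at each point. Socs3 and Jak3 fall along the tubule sum (r = -0.93 and -0.92), and Irf8 and Ifitm3 rise along the leukocyte sum (r = 0.83 and 0.77).

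The library titles carry numbers in 2 separate ranges, with SNx 1 to 6 and all controls in the lower and SNx 7 to 12 in the upper. Between the 6 SNx libraries of each range no gene of 15065 passed FDR below 0.05 (edgeR), 0.0% of all, while 777 genes, or 5.16%, had an unadjusted p below 0.05, and limma-voom called 0 as well. Among the members only Tapbp had an unadjusted p below 0.05, lower in the upper range by 0.33 on the log2 scale (mean 7.11 against 7.42 log2 CPM, FDR 0.832).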

How the data were processed

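The samples were kidney tissue of 17 rats (12 SNx, 5 NoOp) with 1 library each. Libraries were made after ribosomal depletion with strand information kept, and read from both ends. Transcript quantification by the authors (Salmon and rn6 in the submitters' notes), followed by tximport, gave the estimated counts that were deposited, which are whole numbers and not normalized. The authors also deposited log2 values after limma's voom step for 13318 of 23487 genes, used here as an alternative only. The 34 columns of the whole-series tables hold the same values and were not used. RNA integrity varied widely in the methods, down to very low estimates, and is not given per library, so its part was not tested.

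Counts, already whole, were filtered with filterByExpr, scaled by TMM and tested with edgeR 4.0.16 in R 4.3.3 (quasi-likelihood, two-sided, Benjamini-Hochberg over 15438 genes, FDR below 0.05), as a model of 2 groups without covariates. The model was tested on simulated data. Log2 CPM used a prior count of 2, and within-library ratios added 0.5 counts. Alternatives were limma-voom (limma 3.58.1), DESeq2 1.42.0, other scalings and filters, and leaving out libraries. Sums, ratios and relations were computed in Python 3.11.15. Sums were tested with exact permutations over 6188 splits and relations with 100000 permutations, and ratios, chosen after seeing the values, are given without a p. In all, 74 relations were computed, and p was adjusted over the 37 members for each sum. No pair of libraries in a group differed by less than sampling noise (chi-square per degree of freedom at least 22.4). Counts are not single molecules, as no molecular identifiers are mentioned, so their precision covers counting only.

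The members, gene lists and markers were chosen with earlier results of these data known. All members are named. Values of each control library are given, per role, for the 3 members with the highest mean counts and for any that went against its group, and of the other pathway genes at most 6 are named by mean counts, together with those that were not called. Symbols came from the part of the published lists that was used here. The lists' own fold changes and p-values were not used. Promoter windows are RefSeq's on GRCr8 and carry no coordinates of the build of the counts.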

Additional observations from a re-analysis of the deposited data

Results flagged for a closer look

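In NoOp 5, Tap2 stood at 5.12 log2 CPM, the lowest of the 5 controls. Its gap to the nearest control was 0.746 of the whole range of the group, past the critical value of 0.71 of Dixon's test. Among the 37 members examined in this way this was 1 flag, and chance flags about 1 in 20 groups. NoOp 5 was also the lowest control for B2m, Tap1 and Tapbp, without passing the critical value. Without NoOp 5, Tap2 was still higher in SNx, within the range of 0.95 to 1.15 that leaving out single libraries gave for its log2 fold change.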

How the results depend on the processing

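No member changed direction under any alternative, and 960 of 962 recomputed fold changes of single members kept their side of the threshold or moved by less than 1 SD. The exceptions were both of Psme1, which was called with library size alone (log2 0.37, FDR 0.00324) and without SNx 1 (log2 0.20, FDR 0.0443). Library size alone moved the median of all genes from 0.02 to 0.23 and the calls from 4672 higher and 4277 lower to 7044 higher and 2403 lower, that is from 52.2% to 74.6% higher among the called, so the members' rises are to be read against that shift. Among the other pathway genes listed from study 1 only, 2 in place of 1 were called lower with DESeq2, with limma on the deposited values, with the SNx libraries of the lower number range and without SNx 11, and the added gene was Tpp2 each time (range 1 to 2 over single libraries left out). The leukocyte relations gave 0 members in place of 4 without the 2 farthest libraries and 2 with the mean of log2 CPM over markers (Irf8 and Ifitm3), and the tubule relations gave 8 in place of 23 without the 2 farthest, with fewer libraries in both cases.

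Leaving out single libraries gave 18 to 19 of the 19 tested members called higher, a median of 1.49 to 1.59 for the members listed from study 2, 4148 to 4882 genes called higher and 3766 to 4556 lower, and 1.80 to 1.98 for the leukocyte sum. The within-library differences ran from 1.20 to 1.43 for Psmb9 to Psme1, 0.70 to 0.93 for Psmb9 to Psme2, 1.02 to 1.12 for Psmb9 to B2m, 0.99 to 1.17 for Irf8 to Irf9, 0.91 to 1.03 for Ciita to Ifi30 and 0.24 to 0.41 for Tap2 to Tapbp. The ratios, and the leukocyte sum in each number range, were added after seeing the data. No paired analysis was possible because each library is a different rat and the numbers only name them. The lowest count of any member in a library was 22, above the floor of 3 counts.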
